A study of Homo sapiens with 192 samples.

Results

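The difference in 3D response between HT29 and LS513, a pair of microsatellite stable human colorectal cancer (CRC) cell lines, was described by the change from 2D to 3D growth in HT29 minus the same change in LS513. Its members are the 12 libraries of HT29 and LS513 among the 24 libraries of the series. The remaining 12 libraries, of HCT116 and LS174T, entered the estimate of the spread between libraries and served to look up the same genes in other lines. All cells were untreated, each line was grown in 2D and in 3D, and each of the 4 groups HT29 2D, HT29 3D, LS513 2D and LS513 3D had 3 libraries of polyadenylated RNA. Each line stands for 1 established tumor line, so a difference between them is a difference between HT29 and LS513 and cannot be told apart from one between single lines of their kind. The labels number the samples but do not say that they came from separate cultures, so the p-values measure the spread between these libraries, which may be technical. The labels give the 3D growth no further detail, and the study describes low attachment plates for the spheroids of its other assays.

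A tumor line in a spheroid touches other cells on all sides, loses its spread contact with plastic and receives less oxygen and nutrient in its centre. Cells of the intestinal epithelium divide in the crypt under Wnt signaling and mature into absorptive colonocytes or into secretory cells such as goblet cells, which fill with mucin and trefoil peptides. The transcription factor ATOH1 starts the secretory program, and cells that carry it present Delta-like ligands that activate Notch in their neighbours and keep those neighbours out of it. Flat cells under tension assemble actin cables, focal adhesions and matrix, and transcription of those parts follows actin through the factor SRF and its partners. When membranes hold little cholesterol, the SREBP factors switch on the enzymes that make it. Low oxygen acts through HIF, and shortage of amino acids or stress in the endoplasmic reticulum acts through ATF4.

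Total counts ran from 28520528 to 34277421 in 11 of the 12 libraries and reached 18723942 in HT29 2D replicate 3. That library also stood apart in non-polyadenylated RNA, with 372 CPM (counts scaled by TMM-normalised library size) of small nucleolar RNAs against 81.2 to 165 in the other HT29 libraries, and 516 CPM of replication-dependent histone RNA against 33.7 to 72.3. For that reason some counts below are given with and without it. These are the genes that differed between the lines, those that responded in HT29 alone, histones and snoRNAs. All 10 epithelial identity markers, among them EPCAM, CDH1, KRT8 and VIL1, exceeded the floor of 3 counts in every library of both lines. Of the 10 fibroblast markers, 7 to 9 were at or under the floor in all libraries of a group and their sum stayed between 0.483 and 1.15 CPM. Among the 10 leukocyte markers, PTPRC (CD45) was at 0 or at most 0.0688 CPM, CD3E was at 0 in all 12 libraries, and the sum of the list ran from 1327 to 1437 CPM in HT29 2D, 2438 to 2689 in HT29 3D, 20.7 to 22.3 in LS513 2D and 65.4 to 96.4 in LS513 3D. Nearly all of the HT29 sum was lysozyme, LYZ, an antibacterial enzyme that secretory intestinal cells also make, at 1383, 1312 and 1426 CPM in 2D and 2405, 2586 and 2659.5 CPM in 3D. CD14, a monocyte receptor, rose in HT29 from 6.001, 7.29 and 5.04 to 15.1, 10.1 and 12.8 CPM (adjusted p = 0.0072) and was at 0 in 5 of the 6 LS513 libraries. Nearly all of the LS513 sum was CD68, a lysosomal protein abundant in macrophages, which rose from 18.02, 19.5 and 20.5 to 80.4, 91.8 and 61.7 CPM in LS513 (2.01, adjusted p = 6.2e-08) and from 5.62, 7.54 and 4.77 to 15.4, 11.2 and 14.04 CPM in HT29 (1.17, adjusted p = 8.4e-05). The 8 endothelial markers summed to 82.1 to 89.9 CPM in HT29 and 7.25 to 13.5 CPM in LS513. Nearly all of that sum was ESAM, at 80.3 to 86.7 CPM in HT29 and 7.19 to 12.9 CPM in LS513. KDR, EMCN and CLDN5 were at 0 in all 12 libraries. The part of other cells in the results below was not tested beyond these values. In bulk RNA, fewer cells of a type and less RNA per cell cannot be told apart.

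Of 19387 genes tested, 2341 (12.1%) changed differently from 2D to 3D in HT29 and LS513 at an adjusted p under 0.05 (edgeR's quasi-likelihood test of the interaction, Benjamini-Hochberg). The interaction is given below in log2 units as the HT29 change minus the LS513 change, so that a positive value is a higher 3D response in HT29, and its error is the standard error (SE) of the fit. It was positive for 1061 genes (5.47%) and negative for 1280 genes (6.6%), and 1067 of the 2341 differed by at least 1. Without HT29 2D replicate 3, 1956 genes passed, 1003 with a positive and 953 with a negative interaction. Within the lines, 7887 genes (40.7%) passed the test in HT29 (21.1% higher and 19.6% lower in 3D), and 4571 genes (23.6%) passed in LS513 (13.7% higher and 9.9% lower). Counts of list members that rose or fell in a line are to be read beside these shares. The median change over all tested genes was 0.00 in HT29, in LS513 and in the interaction.

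A gene was counted as responding in HT29 alone when the interaction passed, HT29 changed by at least 1 log2 unit and passed its test, and LS513 neither passed its test nor changed by 0.5. By that rule 282 genes (1.45% of those tested) were higher in 3D in HT29 alone and 109 (0.562%) were lower. With the lines exchanged, 125 genes (0.645%) were higher in LS513 alone and 21 (0.108%) were lower. Opposite changes, each past its own test, were found for 297 genes, of which 98 (0.505%) were higher in 3D in HT29 and lower in LS513 and 199 (1.03%) were lower in HT29 and higher in LS513. A further 197 genes (1.02%) rose in both lines by unequal amounts, more in HT29 for 113 of them. Another 53 (0.273%) fell in both, more in HT29 for 48. The remaining 1257 genes (6.48%) passed the interaction test but met none of these rules. Without HT29 2D replicate 3, 249 of the 282 genes higher in HT29 alone and 77 of the 109 lower in HT29 alone were again in their class. A line that misses its test is not thereby shown to be unmoved, so the 95% interval of its change is given below for the genes counted as responding in 1 line. With the stricter rule that this whole interval lie within 0.5 of 0, 116 genes responded in HT29 alone and 31 in LS513 alone.

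**Figure D1:**
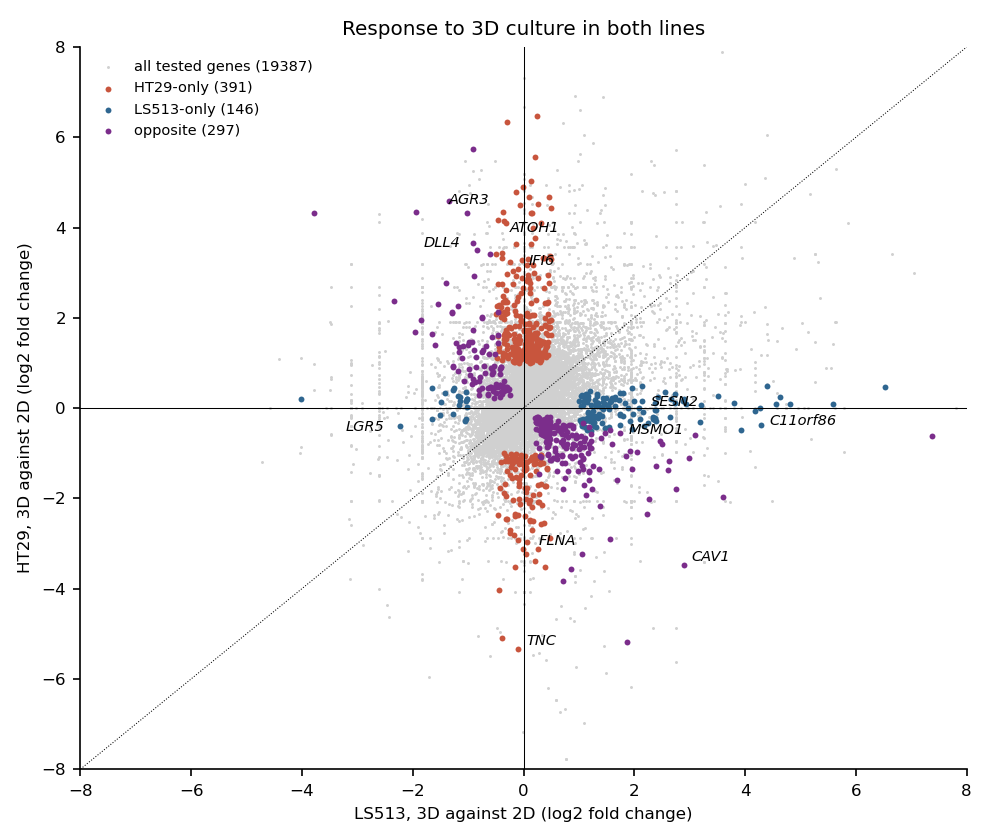
Each point is a tested gene, with its log2 change from 2D to 3D in LS513 on the horizontal axis and in HT29 on the vertical axis, coloured by class. The 391 genes that responded in HT29 alone lie along the vertical axis, the 146 of LS513 alone along the horizontal axis, and the 297 opposite genes in the upper left and lower right.

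The secretory genes ATOH1 and AGR3 rose in HT29 from low levels, while LS513 held them at higher levels in 2D already. ATOH1 (ENSG00000172238, chr4:93828753-93830964, plus strand, GRCh38), the master factor of secretory cells, measured 0.274, 0.3785 and 0.274 CPM in the HT29 2D libraries and 5.88, 4.702 and 6.602 CPM in the HT29 3D libraries. In LS513 it measured 8.33, 9.73 and 12.2 CPM in 2D and 6.13, 7.28 and 8.49 CPM in 3D. The HT29 groups were far apart, those of LS513 overlapped, and HT29 in 3D reached the lower LS513 3D values. Its interaction was 4.64 (SE 0.38, adjusted p = 6.4e-09), from an increase of 4.18 in HT29 and a change of -0.47 in LS513 (95% interval -0.85 to -0.08, adjusted p = 0.074). AGR3 (ENSG00000173467, chr7:16859405-16881987, minus strand), a protein disulfide isomerase relative of secretory and ciliated epithelia, went from 0.309, 0.688 and 0.1096 CPM to 9.59, 7.99 and 6.86 CPM in HT29. In LS513 it was at 15.8, 17.6 and 15.65 CPM in 2D and 14.4, 12.5 and 10.98 CPM in 3D, which is above every HT29 library. The interval of its LS513 change was -0.84 to 0.09. Its interaction was 4.71 (SE 0.45, adjusted p = 1.5e-07).

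Of the 29 tested mucin and goblet cell genes, 15 had a higher and 1 a lower 3D response in HT29 than in LS513 (55.2%, against 12.1% of all tested genes), and 11 rose in HT29 alone. The median change was 1.63 in HT29 and 0.15 in LS513, and within the lines 20 members rose and 1 fell in HT29 while 9 rose and 1 fell in LS513. The goblet peptides SPINK4 and TFF3 started near the floor in HT29. SPINK4 measured 0.0686, 0.3785 and 0.0548 CPM in HT29 2D and 3.499, 3.04 and 4.61 CPM in HT29 3D. In LS513 it was at 213 ± 45.1 and 234 ± 56.6 CPM (mean ± SD, n = 3) in 2D and 3D. TFF3, a trefoil peptide that stabilises mucus, measured 0.514, 1.65 and 0.767 CPM in 2D and 10.5, 8.58 and 11.3 CPM in 3D in HT29. In LS513 its mean was 721 CPM in 2D and 925 CPM in 3D, so HT29 in 3D stayed far under LS513. The interactions were 4.18 (SE 0.82) for SPINK4 and 2.97 (SE 0.43) for TFF3, and the intervals of the LS513 changes were -0.39 to 0.66 and -0.10 to 0.82. ERN2, the stress sensor of mucin-making cells, rose from 8.12 ± 3.17 to 32.7 ± 0.7996 CPM in HT29 and stayed at 150.2 ± 7.46 and 144 ± 13.1 CPM in LS513 (LS513 interval -0.40 to 0.28, interaction 2.09, adjusted p = 3.2e-06). AGR2, which folds mucins, rose in both lines, by 1.93 in HT29 and 0.75 in LS513. The member that went the other way was TFF1, a trefoil peptide of the stomach type, which fell from 10.4, 12.2 and 6.46 to 0.995, 0.934 and 1.197 CPM in HT29 and rose from 39.4, 38.8 and 30.1 to 83.7, 90.97 and 49.4 CPM in LS513 (interaction -4.28, SE 0.43, adjusted p = 1.5e-06).

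The Notch list had 21 tested genes, of which 5 passed the interaction test, 4 with a higher response in HT29 (23.8%, against 12.1% of all genes). They were ATOH1 and the ligands DLL4 and DLL1, the glycosyltransferase LFNG, which tunes Notch for Delta ligands, and with a lower response JAG1, a ligand of the other family. DLL4 (ENSG00000128917, chr15:40929333-40939073, plus strand) measured 0.171, 0.688 and 0.438 CPM in HT29 2D and 7.09, 4.11 and 5.19 CPM in HT29 3D. In LS513 it measured 23.7, 28.6 and 20.9 CPM in 2D and 14.5, 9.77 and 14.7 CPM in 3D, so the groups separated in both lines and in opposite directions. Its interaction was 4.56 (SE 0.40, adjusted p = 1.4e-08). DLL1 measured 0.0686, 0 and 0 CPM and 0.603, 0.657 and 0.3265 CPM in HT29, the 2D libraries being under the floor, and 11.03 ± 1.73 and 8.68 ± 0.7396 CPM in LS513 (LS513 interval -0.71 to 0.01, interaction 4.50, SE 0.97). JAG1 fell by 1.56 in HT29, from 37.6 ± 3.85 to 12.8 ± 2.72 CPM, and its change of -0.20 in LS513 had an interval of -0.52 to 0.12. LFNG changed by 0.34 in HT29 and by -0.50 in LS513, both past the test. Outside that list, NEURL1, a ubiquitin ligase that acts on Notch ligands, had one of the 4 largest interactions among genes higher in HT29 alone. It measured 0.0343, 0.344 and 0.219 CPM in HT29 2D, 7.99, 5.12 and 6.38 CPM in HT29 3D, and 0.703 ± 0.277 and 0.772 ± 0.0606 CPM in LS513 (LS513 interval -0.60 to 0.88, interaction 4.88, SE 0.60, adjusted p = 1.8e-06). NXPH4, a secreted neurexophilin, rose from 0.309, 0.3097 and 0.493 to 14.6, 5.64 and 9.54 CPM in HT29 and was at 0.166 ± 0.127 and 0.153 ± 0.0421 CPM in LS513 (LS513 interval -1.77 to 1.51, interaction 4.92, SE 0.92). C10orf99, which encodes a secreted antimicrobial peptide of the colon, had 0 counts in each HT29 2D library and 12, 10 and 10 counts in 3D, at least 2.89-fold higher against the floor of 3 counts per library, and 17.98 ± 2.46 and 21.2 ± 5.62 CPM in LS513 (LS513 interval -0.25 to 0.73).

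The colonocyte regulators CDX2 and CDX1 rose in HT29 from low levels. They are among the 10 epithelial identity markers, of which 2 had a higher and 2 a lower response in HT29 (40%, against 12.1% of all genes). The median interaction of those 10 was -0.38, so CDX2 and CDX1 do not stand for that list. CDX2, the homeobox factor that specifies intestine, measured 1.68, 0.963 and 1.64 CPM in HT29 2D and 7.72, 5.498 and 6.93 CPM in HT29 3D. In LS513 it measured 149, 145 and 168 CPM in 2D and 254, 217 and 226 CPM in 3D. The factor rose in both lines and by more in HT29 (interaction 1.66, SE 0.21, adjusted p = 6.2e-06), yet HT29 in 3D stayed under every LS513 library. CDX1, its close relative, rose from 0.617, 0.275 and 0.493 to 3.499, 3.285 and 2.94 CPM in HT29, and its change of 0.06 in LS513, at 353 ± 10.7 and 369 ± 43.5 CPM, had an interval of -0.27 to 0.39. As a whole the 33 absorptive colonocyte genes did not favour either line, with 8 higher and 7 lower in the interaction and medians of 1.08 in HT29 and 0.77 in LS513. The lower ones included PLAC8 and EMP1. EMP1, a membrane protein of the differentiated surface, measured 219, 287 and 189 CPM in HT29 2D, 99.97, 121 and 133 CPM in HT29 3D, 38.2, 29.6 and 32.7 CPM in LS513 2D and 150.2, 149 and 118 CPM in LS513 3D, an opposite change with an interaction of -3.03 (SE 0.24). PLAC8 fell by 1.71 in HT29 and rose by 1.09 in LS513 (interaction adjusted p = 9.9e-09).

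Of 62 tested interferon response genes, 43 rose and 2 fell in HT29, and 17 rose and 1 fell in LS513. By the interaction 12 were higher in HT29 and 1 was lower (21%, against 12.1% of all genes), and 7 rose in HT29 alone. The median interaction was 0.42, or 0.36 with the 11 genes that had a group at 0 set to their bounds. Without HT29 2D replicate 2, 9 of the list passed. IFI6 (ENSG00000126709, chr1:27666061-27672218, minus strand), a mitochondrial survival protein that interferon induces, measured 1.23, 1.755 and 0.877 CPM in HT29 2D and 10.4, 12.9 and 10.6 CPM in HT29 3D. In LS513 it measured 0.676, 0.785 and 0.7603 CPM in 2D and 0.564, 0.7104 and 0.797 CPM in 3D, with overlapping groups (95% interval of its change -0.78 to 0.58). The interaction was 3.19 (SE 0.40, adjusted p = 6.9e-06). Genes of antigen processing moved in HT29 from levels far under those of LS513. The immunoproteasome subunit PSMB8 rose from 6.78 ± 1.99 to 19.5 ± 2.44 CPM in HT29 and was at 193 ± 11.7 and 215 ± 30.99 CPM in LS513 (LS513 interval -0.22 to 0.54, interaction 1.39, SE 0.28, adjusted p = 0.0014). Its partner PSMB9 rose from 0.0755 ± 0.0544 to 0.583 ± 0.244 CPM and was at 28.1 ± 0.569 and 29.9 ± 4.71 CPM in LS513 (LS513 interval -0.28 to 0.46, interaction 2.75). The peptide transporter TAP1 rose from 2.45 ± 0.518 to 5.205 ± 0.453 CPM and was at 182 ± 8.64 and 188 ± 14.9 CPM in LS513 (LS513 interval -0.20 to 0.29, interaction 1.07). OAS1, a sensor enzyme for double-stranded RNA, rose in both lines, by 1.80 in HT29 and 0.99 in LS513, and its interaction of 0.81 (adjusted p = 0.045) lost its call in 8 of the 12 fits that left out a library (adjusted p up to 0.12, without HT29 2D replicate 2). SAMD9, an antiviral factor, was the exception, with 52.5, 68.9 and 47.1 CPM in HT29 2D, 26.8, 21.8 and 30.1 CPM in HT29 3D, 4.601, 3.84 and 4.02 CPM in LS513 2D and 6.41, 5.86 and 10.5 CPM in LS513 3D, an opposite change (interaction -1.97, SE 0.29).

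Promoters are shown for IFI6 and SAMD9, the members of the interferon list with the smallest interaction p and with opposite signs, because they moved in opposite directions in HT29 while both hold the core of the interferon-stimulated response element. Each is the 250 bases before the RefSeq start on GRCh38.p14, 5′ to 3′ on the strand of the gene, with matches to GAAA, any 2 bases and GAAA in capitals.
IFI6, chr1:27672193-27672442, minus strand: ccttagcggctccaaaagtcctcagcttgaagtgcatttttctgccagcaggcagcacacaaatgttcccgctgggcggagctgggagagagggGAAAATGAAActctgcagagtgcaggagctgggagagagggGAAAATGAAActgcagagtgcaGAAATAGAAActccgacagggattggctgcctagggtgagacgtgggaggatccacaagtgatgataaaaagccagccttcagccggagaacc
SAMD9, chr7:93117980-93118229, minus strand: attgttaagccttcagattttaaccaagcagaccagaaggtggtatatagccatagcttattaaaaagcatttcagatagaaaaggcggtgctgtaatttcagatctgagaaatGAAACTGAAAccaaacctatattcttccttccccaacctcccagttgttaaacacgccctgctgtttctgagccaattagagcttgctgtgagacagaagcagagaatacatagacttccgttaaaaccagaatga
IFI6 held 3 matches, the first beginning 156 bases before the start, and SAMD9 held 1, at 136 bases. The match was searched on both strands. In windows of 250 bases before to 50 after the start, it was found in 6 of the 12 called interferon genes with a promoter in the table (50%), against 334 of 11944 tested genes (2.8%). The list was chosen as interferon response genes, so its share over all genes does not bear on the difference between the lines. Among genes higher in HT29 alone the share was 5.78%, and among those lower 7.14%. A match describes the letters in the window and not the use of a site.

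The genes with the largest differences among those lower in HT29 alone were TNC, CLU, FLNA and MYL9. FLNA (ENSG00000196924, chrX:154348524-154374638, minus strand), which crosslinks actin and ties it to integrins, measured 2452, 3215 and 2467 CPM in HT29 2D and 279.7, 255 and 336 CPM in HT29 3D. The LS513 libraries had 1098, 1108 and 1054 CPM in 2D and 1164, 1053 and 1152 CPM in 3D. The HT29 groups were far apart and those of LS513 overlapped, with an interval of -0.27 to 0.36 for the LS513 change. Its interaction was -3.27 (SE 0.22, adjusted p = 2.3e-09). TNC (ENSG00000041982, chr9:115019578-115118257, minus strand), the matrix glycoprotein tenascin-C, measured 16.05, 43.01 and 20.7 CPM in HT29 2D and 0.754, 0.553 and 0.653 CPM in HT29 3D. The values in LS513 were 2.38, 3.05 and 1.77 CPM in 2D and 2.64, 1.74 and 2.36 CPM in 3D, which left HT29 in 3D under LS513 although it was over it in 2D. The LS513 change of TNC had an interval of -0.76 to 0.56. The interaction of TNC was -5.24 (SE 0.48, adjusted p = 1.3e-07). MYL9, a myosin light chain of contractile cells, fell from 1.37, 1.07 and 2.575 to 0.271, 0.138 and 0.181 CPM in HT29, where LS513 was at 70.01 ± 12.5 and 73.3 ± 13.4 CPM, a change with an interval of -0.38 to 0.51 (interaction -3.03, SE 0.60). CLU, the secreted chaperone clusterin, fell from 6.96, 11.8 and 5.64 to 1.42, 0.864 and 1.05 CPM in HT29 and measured 102 ± 8.302 and 142 ± 12.45 CPM in LS513 (interaction -3.35, SE 0.34, adjusted p = 3.5e-07). The LS513 change of CLU was 0.48 with an interval of 0.09 to 0.86, which lies above 0 although the test did not pass (adjusted p = 0.068).

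Of the 31 tested genes of the actin cytoskeleton and SRF targets, 18 had a lower response in HT29 and none a higher one (58.1%, against 12.1% of all genes). In HT29 19 members fell and 5 rose, in LS513 14 rose and none fell, and 9 changed in opposite directions. The medians were -0.38 in HT29 and 0.36 in LS513. Without 1 library at a time, 15 to 17 members passed. ACTB, cytoplasmic beta-actin, measured 4854, 5789.9 and 5036 CPM in HT29 2D, 3483, 2877 and 3176 CPM in HT29 3D, 4813, 4937 and 5083 CPM in LS513 2D and 6887, 6395 and 6606 CPM in LS513 3D. Its groups separated in both lines in opposite directions (interaction -1.14, SE 0.15, adjusted p = 1.0e-05). The nonmuscle myosin heavy chain MYH9 changed by -0.54 and 0.36 and the focal adhesion protein ZYX by -0.58 and 0.37, in HT29 and LS513 in that order. VCL, vinculin, fell in HT29 alone, from 166 ± 5.83 to 77.96 ± 9.402 CPM (LS513 interval -0.09 to 0.39, interaction -1.24, SE 0.16). Among 23 YAP and TEAD targets 6 had a lower response in HT29 and none a higher one (26.1%, against 12.1% of all genes), and 3 passed in 9 of the 12 fits that left out a library. MYOF, a membrane repair protein, fell from 156 ± 9.24 to 36.4 ± 3.91 CPM in HT29 and was at 175 ± 15.9 and 187 ± 24.2 CPM in LS513 (interval of the change -0.26 to 0.45). The receptor kinase AXL fell from 10.6, 16.4 and 9.48 to 1.45, 0.934 and 1.63 CPM in HT29 and was under 1 CPM in LS513 (interaction -4.64, SE 0.64).

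Of 42 tested collagens, laminins and integrins 13 had a lower and 2 a higher response in HT29 (35.7%, against 12.1% of all genes). The medians were -0.28 in HT29 and 0.18 in LS513. HT29 lowered 17 and raised 2, while LS513 raised 11 and lowered 3. COL16A1, a fibril-associated collagen, fell from 68.7, 75.9 and 60.5 to 25.8, 27.5 and 24.7 CPM in HT29 and rose from 5.28, 4.47 and 3.52 to 8.95, 13.8 and 7.415 CPM in LS513 (interaction -2.58, SE 0.26). LAMA3, a laminin chain of the epithelial basement membrane, went from 68.3 ± 20.4 to 36.99 ± 2.81 CPM in HT29, and in LS513 from 40.3 ± 2.35 to 92.7 ± 3.65 CPM (interaction -2.09). FN1, fibronectin, measured 1.82, 0.585 and 1.21 CPM in HT29 2D, 0.0603, 0.138 and 0.2902 CPM in HT29 3D, 2.735, 3.53 and 9.38 CPM in LS513 2D and 14.3, 12.4 and 19.7 CPM in LS513 3D (interaction -4.47, SE 0.83). The members with a higher response in HT29 were ITGA1, a collagen receptor subunit that fell in LS513 alone (HT29 interval -0.34 to 0.82, interaction 1.39), and COL9A2, which had 0 counts in HT29 2D. Neither call stood when some single library was left out, with adjusted p = 0.077 for ITGA1 without HT29 3D replicate 1 and 0.089 for COL9A2 without LS513 2D replicate 3. PLAU, the urokinase protease, measured 4.32, 5.33 and 2.74 CPM in HT29 2D and 0.633, 1.003 and 0.508 CPM in HT29 3D and in LS513 16.9, 17.3 and 16.5 CPM in 2D and 22.2, 21.9 and 21.5 CPM in 3D, where the change of 0.37 did not pass (adjusted p = 0.078) although its interval of 0.06 to 0.68 lay above 0 (interaction -2.92, SE 0.28). In the epithelial-mesenchymal list, which holds PLAU, FN1 and CLDN2, 1 of 29 genes had a higher and 5 a lower response in HT29 (20.7%, against 12.1%). The higher one was CLDN2, a claudin that forms cation pores, which rose by 0.53 in HT29 and fell by 0.94 in LS513.

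**Figure D2:**
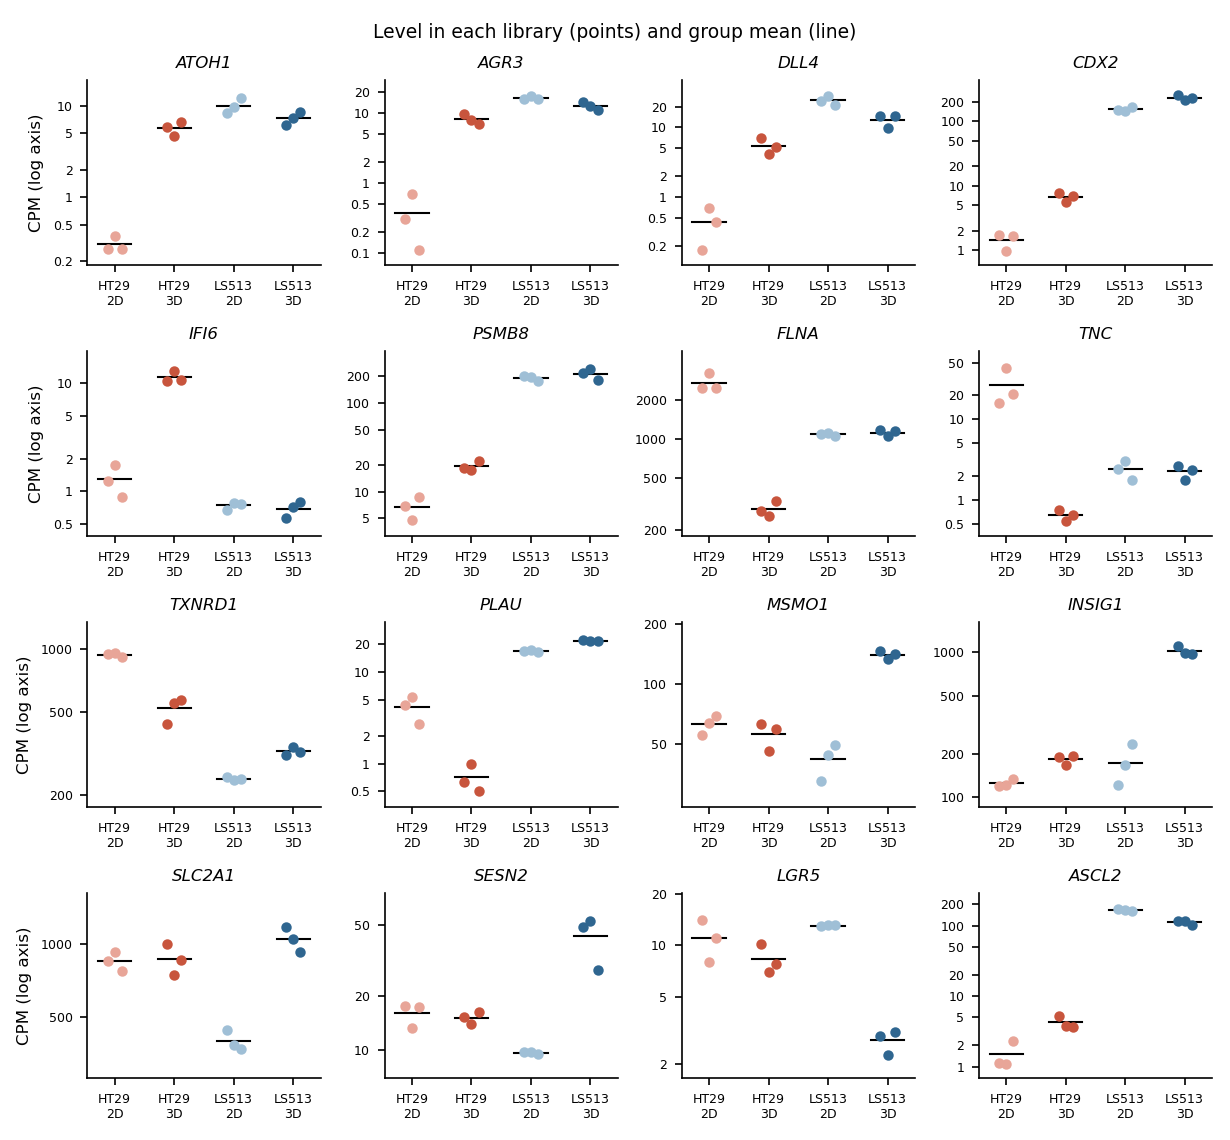
CPM of 16 genes in each of the 12 libraries, on a logarithmic axis, with 2D and 3D libraries of HT29 and LS513 as separate points and each group mean as a line. ATOH1, AGR3 and IFI6 separate the HT29 groups from below, FLNA, TNC and PLAU separate them from above, and MSMO1, SLC2A1, SESN2 and LGR5 separate the LS513 groups.

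The receptors EGFR and EPHA2 also fell in HT29. EGFR measured 177, 175 and 163 CPM in HT29 2D, 60.7, 50.45 and 67.8 CPM in HT29 3D, 95.1, 88.9 and 92.2 CPM in LS513 2D and 85.3, 75.5 and 90.9 CPM in LS513 3D, with overlapping groups in LS513 alone (LS513 interval -0.47 to 0.21, interaction -1.39, SE 0.23, adjusted p = 2.2e-04). EPHA2, a receptor kinase for ephrins, fell by 0.64 in HT29 and rose by 0.46 in LS513. ERRFI1, the feedback inhibitor of EGFR, fell from 151 ± 11.5 to 82.1 ± 12.3 CPM in HT29 and rose from 124 ± 9.07 to 228 ± 42.4 CPM in LS513 (interaction -1.76, SE 0.20). Among 36 immediate early and MAPK feedback genes 1 had a higher and 6 a lower response in HT29 (19.4%, against 12.1% of all genes). DUSP4, a nuclear phosphatase for ERK, changed by -0.59 in HT29 and 0.36 in LS513, both past the test, and the higher one was DUSP6, a cytoplasmic ERK phosphatase, whose interaction of 0.69 lost its call in 6 of the 12 fits that left out a library (adjusted p up to 0.085, without HT29 3D replicate 3). CCND1, the G1 cyclin, fell in HT29 alone, from 128 ± 11.6 to 57.9 ± 7.396 CPM (LS513 interval -0.45 to 0.08, interaction -0.96, adjusted p = 8.0e-04). TGFBI, a matrix protein induced by TGF-beta, fell from 27.98, 41.8 and 31.99 to 9.2002, 5.81 and 7.18 CPM in HT29 and was at 622 ± 56.3 and 694 ± 40.6 CPM in LS513 (LS513 interval -0.10 to 0.41, interaction -2.35, SE 0.19). In the same list of 34 tested TGF-beta and BMP genes, 6 had a higher and 5 a lower response in HT29 (32.4%, against 12.1%). ATOH8 was among the higher ones, with 0, 0 and 1 counts in HT29 2D and 64, 30 and 32 in HT29 3D, so that its fitted difference rests on 1 count in 2D (LS513 interval -0.93 to 0.31).

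Sterol synthesis genes rose more often in LS513 than in HT29, and by a larger median. Of the 35 cholesterol and fatty acid genes, all of which were tested, 23 had a lower response in HT29 than in LS513 and 1 a higher one (68.6%, against 12.1% of all genes). LS513 raised 29 of them and lowered none, HT29 raised 16 and lowered 1, and 7 rose in LS513 alone. The medians were 1.15 in LS513 and 0.25 in HT29, and 21 to 24 members passed without 1 library at a time. MSMO1 (ENSG00000052802, chr4:165327623-165343160, plus strand), a sterol demethylase, measured 32.6, 44.05 and 49.5 CPM in LS513 2D and 146, 134 and 143 CPM in LS513 3D. In HT29 it measured 55.8, 64.2 and 69.4 CPM in 2D and 63.4, 46.3 and 59.8 CPM in 3D. The LS513 groups were far apart and the HT29 groups overlapped, with an interval of -0.49 to 0.17 for HT29 and an interaction of -1.90 (SE 0.23, adjusted p = 4.0e-06). INSIG1 (ENSG00000186480, chr7:155297776-155310235, plus strand), which holds SREBP back when sterol is plentiful and is itself its target, measured 121, 166 and 233 CPM in LS513 2D and 1106, 979 and 969.5 CPM in LS513 3D. In HT29 it measured 119, 121 and 134 CPM and 191, 168 and 192 CPM. It rose in both lines, by 2.56 and 0.56 (interaction -1.998, SE 0.25). HMGCS1, an early enzyme of sterol synthesis, rose by 2.04 in LS513 and 0.42 in HT29 (interaction -1.62, adjusted p = 2.1e-05). SQLE, squalene epoxidase, rose from 90.3 ± 15.9 to 201 ± 13.8 CPM in LS513, still under the HT29 levels of 859.7 ± 41.6 and 735 ± 158 CPM, whose change had an interval of -0.53 to 0.08. The member with a higher response in HT29 was SREBF1, which encodes SREBP1 (interaction 0.51, adjusted p = 0.045), and it lost its call in 6 of those 12 fits (adjusted p up to 0.14, without LS513 2D replicate 3).

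Oxygen-sensitive and glycolytic genes rose in both lines and more often by more in LS513. Of 46 tested members 25 rose and 2 fell in HT29, and 36 rose and none fell in LS513, with medians of 0.47 and 1.09. By the interaction 18 had a lower and 3 a higher response in HT29 (45.7%, against 12.1% of all genes). SLC2A1 (ENSG00000117394, chr1:42925375-42959176, minus strand), the glucose transporter GLUT1, measured 439, 383 and 369 CPM in LS513 2D and 1172, 1050.1 and 927 CPM in LS513 3D. In HT29 it measured 846, 925 and 774 CPM in 2D and 999, 745 and 861 CPM in 3D, overlapping groups at about the level that LS513 reached, with an interval of -0.21 to 0.28 (interaction -1.37, SE 0.17, adjusted p = 5.5e-06). DDIT4, an inhibitor of mTORC1, rose from 9.396, 10.7 and 10.3 to 144, 137 and 99.2 CPM in LS513 and from 58.98, 36.6 and 66.7 to 108, 60.5 and 94.4 CPM in HT29, where the groups overlapped (interaction -2.94, SE 0.36). The glycolytic enzymes LDHA and ALDOA rose in LS513 by 1.16 and 1.32, and changed in HT29 by 0.34 (adjusted p = 0.0025) and 0.27 (interval -0.01 to 0.54, adjusted p = 0.11). CA9, a carbonic anhydrase that marks hypoxic tumor cells, rose in both lines, by 3.998 in LS513 and 1.90 in HT29 (interaction adjusted p = 0.0047). VEGFA, the angiogenic factor, passed in LS513 (1.21) and not in HT29 (0.38, interval 0.05 to 0.71), and its interaction of -0.83 lost its call without HT29 2D replicate 1, HT29 3D replicate 4 or LS513 3D replicate 1 (adjusted p of 0.059, 0.075 and 0.056). The members with a higher response in HT29 were NDRG1, P4HA2 and PFKFB3. NDRG1, a stress-induced gene, went from 15.4, 13.2 and 15.3 CPM in 2D to 345, 183 and 357 CPM in 3D in HT29, and in LS513 from 39.3, 41.7 and 41.6 to 500.4, 400.5 and 299.8 CPM (interaction 1.04), and its call was lost in 6 of the 12 fits that left out a library (adjusted p up to 0.072, without LS513 3D replicate 3). P4HA2, a collagen prolyl hydroxylase subunit, rose by 1.83 in HT29 and 0.995 in LS513. PFKFB3, which makes an activator of glycolysis, changed by 0.48 and -0.19 in HT29 and LS513, and the interaction lost its call in 7 of those fits (adjusted p up to 0.11, without HT29 3D replicate 1).

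Promoters of DDIT4 and LDHA are shown as members of this list with a lower response in HT29, with the core of the hypoxia response element, ACGTG, in capitals. They are the 250 bases before the RefSeq start on GRCh38.p14, 5′ to 3′ on the plus strand.
DDIT4, chr10:72273674-72273923, plus strand: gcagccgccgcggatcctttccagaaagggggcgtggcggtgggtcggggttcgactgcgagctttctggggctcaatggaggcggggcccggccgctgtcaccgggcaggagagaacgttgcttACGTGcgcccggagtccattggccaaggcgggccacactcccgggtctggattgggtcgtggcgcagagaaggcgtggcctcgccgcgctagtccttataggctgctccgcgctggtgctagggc
LDHA, chr11:18394313-18394562, plus strand: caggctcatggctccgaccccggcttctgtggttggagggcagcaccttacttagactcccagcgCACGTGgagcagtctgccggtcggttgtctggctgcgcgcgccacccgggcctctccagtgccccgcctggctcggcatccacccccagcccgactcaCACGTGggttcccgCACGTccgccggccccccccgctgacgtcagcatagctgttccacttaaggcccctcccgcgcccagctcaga
DDIT4 held 1 match, at 125 bases before the start. LDHA held 5 over both strands, the first at 185 bases before the start, since the palindrome CACGTG, which is also an E-box, reads as a match on each strand. The core was found in 11 of the 19 called genes of the list with a promoter in the table (57.9%), against 25.9% of the 11944 tested genes with one. The list was chosen as hypoxia genes, so this does not bear on the difference between the lines. Among genes higher in LS513 alone the share was 19.5%, and among those higher in HT29 alone 20.8%. For the sterol list 75% of the called genes had a promoter in the table, and 61.6% of all tested genes had one. The sterol element was found in 0 of those 18 sterol genes, against 1.07% of the 11944. For the ATF4 list 76.2% of the called genes had a promoter, and no share is given.

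Amino acid stress genes of the ATF4 program rose more often than they fell in LS513, and fell more often in HT29. Of 32 tested members 21 had a lower response in HT29 and none a higher one (65.6%, against 12.1% of all genes). In LS513 17 rose and 1 fell, in HT29 5 rose and 16 fell, and 8 changed in opposite directions. The medians were 0.44 and -0.30, and 19 to 21 members passed without 1 library at a time. SESN2 (ENSG00000130766, chr1:28259527-28282491, plus strand), a leucine sensor that restrains mTORC1, measured 9.81, 9.82 and 9.504 CPM in LS513 2D and 48.5, 52.7 and 28.03 CPM in LS513 3D. In HT29 it measured 17.7, 13.3 and 17.4 CPM in 2D and 15.3, 14.04 and 16.25 CPM in 3D. The LS513 groups did not overlap, LS513 3D replicate 3 was the lowest of its group, and the interval of the HT29 change was -0.43 to 0.26 (interaction -2.23, SE 0.24, adjusted p = 9.7e-07). CHAC1, which degrades glutathione, rose from 4.601, 5.35 and 4.72 to 23.5, 33.1 and 12.9 CPM in LS513, and DDIT3, the stress factor CHOP, rose from 4.63, 3.99 and 4.245 to 29.9, 50.3 and 16.1 CPM. For both genes LS513 3D replicate 3 was again the lowest, and HT29 changed by -0.33 (-0.89 to 0.23) for CHAC1 and by 0.20 (-0.58 to 0.97) for DDIT3. ASNS, asparagine synthetase, measured 149, 99.9 and 133 CPM in HT29 2D, 67.1, 69.9 and 78.25 CPM in HT29 3D, 70.1, 72.3 and 75.9 CPM in LS513 2D and 145, 146 and 125 CPM in LS513 3D. This was an opposite change (interaction -1.76, SE 0.20, adjusted p = 3.1e-06). GARS, glycyl-tRNA synthetase, fell by 0.57 in HT29 and rose by 0.46 in LS513 (interaction adjusted p = 1.6e-07), and SLC7A11, the cystine importer, fell by 1.13 and rose by 1.08.

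Chaperones of the endoplasmic reticulum had 11 of 24 members with a lower response in HT29 and none with a higher one (45.8%, against 12.1% of all genes), and in 7 of the 12 fits that left out a library 5 to 7 passed, the fewest without HT29 2D replicate 2. HSPA5, the master chaperone BiP, fell from 893, 1012 and 842 to 516, 519 and 537 CPM in HT29, and its LS513 change was 0.11 with an interval of -0.11 to 0.33 (interaction -0.92, adjusted p = 1.6e-04). P4HB, a protein disulfide isomerase, rose by 0.42 in LS513 and changed by -0.10 in HT29. NRF2 targets and metallothioneins had 14 of 30 tested members with a lower response and 1 with a higher one (50%, against 12.1%). Their medians were -0.03 in HT29 and 0.45 in LS513. TXNRD1 (ENSG00000198431, chr12:104215779-104350305, plus strand), thioredoxin reductase, measured 942, 959.8 and 910.1 CPM in HT29 2D and 438, 552 and 569.5 CPM in HT29 3D. LS513 had it at 244, 236 and 239.8 CPM in 2D and 311, 340.0 and 323 CPM in 3D. It fell by 0.85 in HT29 and rose by 0.44 in LS513, and the ferritin heavy chain FTH1 fell by 0.44 and rose by 0.88 in the same order. The member with a higher response was the metallothionein MT2A (interaction 0.82), whose call was lost in 6 of the 12 fits that left out a library (adjusted p up to 0.097, without LS513 2D replicate 2). TFRC, the transferrin receptor, fell by 0.43 in HT29 and rose by 0.52 in LS513. With FTH1 and the zinc and iron importer SLC39A14 it made up the 3 of 16 iron genes that passed (18.8%, against 12.1%), each with a lower response in HT29.

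Of the 29 tested Wnt targets and crypt stem genes 12 had a higher and 3 a lower response in HT29 (51.7%, against 12.1% of all genes). In LS513 13 fell and 1 rose, and in HT29 8 fell and 8 rose. The medians were -0.42 in LS513 and 0.00 in HT29, and the median interaction was 0.69, or 0.85 with the 5 genes that had a group at 0 set to their bounds. LGR5 (ENSG00000139292, chr12:71439770-71586310, plus strand), the receptor that marks crypt stem cells, measured 12.9, 13.1 and 13.1 CPM in LS513 2D and 2.92, 2.27 and 3.12 CPM in LS513 3D. In HT29 it measured 14.1, 7.95 and 11.01 CPM in 2D and 10.2, 6.95 and 7.73 CPM in 3D. The LS513 groups were well apart, and the HT29 change of -0.41 had an interval of -0.88 to 0.07 (interaction 1.82, SE 0.34, adjusted p = 7.7e-04). ASCL2 (ENSG00000183734, chr11:2268495-2270952, minus strand), the stem cell factor of the crypt, measured 171, 165 and 162 CPM in LS513 2D, 114, 117 and 102 CPM in LS513 3D, 1.13, 1.101 and 2.301 CPM in HT29 2D and 5.31, 3.77 and 3.66 CPM in HT29 3D. It fell in LS513 and rose in HT29, where it remained far lower (interaction 2.15, SE 0.27). The ephrin receptors EPHB2 and EPHB3, which position cells along the crypt, changed by 0.94 and 0.59 in HT29 and by -0.54 and -1.08 in LS513, all past the test. PROM1 (CD133) rose from 5.53 ± 1.62 to 18.2 ± 6.103 CPM in HT29 and fell from 88.6 ± 6.15 to 46.9 ± 8.95 CPM in LS513. CDCA7, a replication-linked chromatin factor, fell in LS513 alone, from 134 ± 10.2 to 55.4 ± 9.72 CPM, with an interval of -0.43 to 0.14 in HT29. The 3 with a lower response in HT29 were CCND1, the Wnt effector TCF7L2 (interaction -0.62) and the receptor TNFRSF19 (interaction -2.23).

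**Figure D3:**
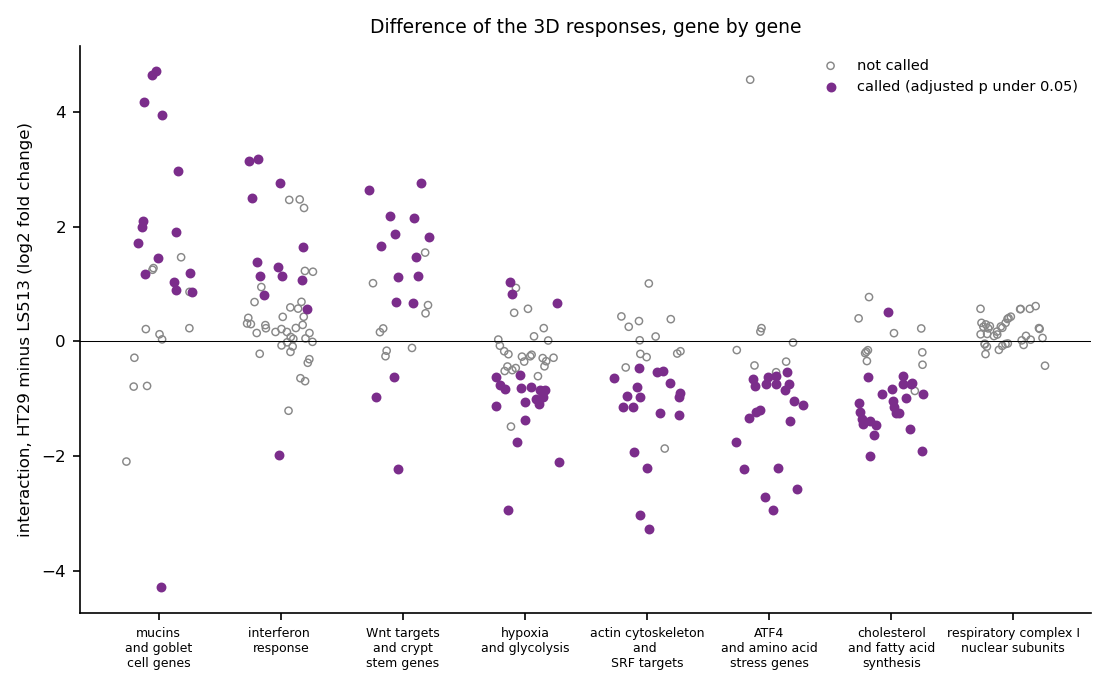
Interaction values in log2 units of the tested members of 8 gene lists, each point a gene and filled points passing the test, without the genes that had a group at 0. Goblet and crypt stem genes lie mostly above 0, while called sterol, hypoxia, ATF4 and actin genes lie mostly below, and no complex I gene is called.

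Among the other genes with the largest differences in LS513 alone, those that rose started under 1 CPM in LS513 2D. C11orf86 rose from 0.7401, 0.695 and 0.982 to 22.3, 30.2 and 15.6 CPM in LS513 and was at 1.28 ± 0.543 and 1.43 ± 0.379 CPM in HT29 (HT29 interval -0.56 to 0.74, interaction -4.72, SE 0.43). TNFAIP2, a TNF-induced gene, rose from 0.0644, 0.0302 and 0.158 to 0.669, 0.746 and 0.589 CPM in LS513, far under the 148 ± 16.01 and 157 ± 16.1 CPM of HT29 (HT29 interval -0.21 to 0.38). RAB7B, a small GTPase of endosomes, rose from 0.2896, 0.242 and 0.444 to 2.22, 3.66 and 3.19 CPM in LS513 and was at 21.9 ± 4.45 and 22.9 ± 4.13 CPM in HT29 (HT29 interval -0.43 to 0.55), and the zinc finger gene ZNF274 rose from 0.0322, 0.0302 and 0.09504 to 1.44, 1.598 and 1.11 CPM and was at 11.1 ± 0.514 and 13.2 ± 3.15 CPM (HT29 interval -0.07 to 0.57). In TNFAIP2, RAB7B and ZNF274, LS513 in 3D was therefore still well under both HT29 levels. CYFIP2, an actin regulator, fell in LS513 alone from 13.4, 14.02 and 13.4 to 8.03, 3.34 and 3.95 CPM (HT29 interval -0.06 to 0.72, interaction 1.74, SE 0.28). SERPINI1, a neuronal serpin, fell from 75.7, 90.3 and 66.1 to 36.7, 27.35 and 33.5 CPM in LS513 and was under 1 CPM in HT29 (HT29 interval -0.50 to 1.39). Its call was lost without HT29 2D replicate 1, HT29 2D replicate 2 or HT29 3D replicate 4 (adjusted p of 0.053, 0.07 and 0.26). LOXL1, a collagen crosslinking enzyme, had 1, 2 and 3 counts in LS513 2D and 0 in each LS513 3D library, at or under the floor, so no fold is given (HT29 interval -0.18 to 0.58), and 6 of the 12 fits that left out a library did not call it.

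Opposite changes of large size were seen for OR51E1, DLL4 and NOX1, higher in HT29, and for CAV1, MAOB and VSNL1, lower in HT29. NOX1, the superoxide-generating oxidase of the colon, measured 1.92, 0.826 and 2.36 CPM in HT29 2D and 16.98, 17.01 and 21.9 CPM in HT29 3D. The LS513 libraries had 39.3, 42.1 and 46.6 CPM in 2D and 23.2, 22.7 and 25.8 CPM in 3D, so that the lines came to similar levels in 3D (interaction 4.34, SE 0.28, adjusted p = 2.3e-09). OR51E1, an odorant receptor for short fatty acids that endocrine cells of the gut carry, rose from 0.0343, 0.103 and 0.0548 to 0.452, 0.346 and 0.254 CPM in HT29 and fell from 7.95, 9.61 and 7.57 to 1.97, 1.31 and 1.66 CPM in LS513. CAV1, the coat protein of caveolae, fell from 21.4, 28.01 and 11.01 to 2.23, 1.45 and 1.705 CPM in HT29 and rose from 0, 0.121 and 0.127 to 0.528, 0.959 and 0.4505 CPM in LS513 (interaction -6.38, SE 0.90). MAOB, a mitochondrial monoamine oxidase, fell from 7.82, 25.1 and 5.75 to 3.14, 2.01 and 2.54 CPM in HT29, with 2D replicate 2 the highest, and rose from 1.03, 1.03 and 1.81 to 5.001, 5.97 and 7.07 CPM in LS513. VSNL1, a neuronal calcium sensor, fell from 0.789, 1.45 and 0.712 to 0.0302, 0.0692 and 0.109 CPM in HT29 and rose from 65.6, 62.5 and 59.05 to 111, 97.998 and 97.99 CPM in LS513 (interaction -4.55, SE 0.57).

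Some genes changed by similar estimated amounts in both lines. Chosen for an interaction under 0.25 in size, the immediate early genes ATF3 and DUSP1 rose in both lines, ATF3 by 2.38 in HT29 and 2.62 in LS513 and DUSP1 by 2.33 and 2.46. PIGZ, a mannosyltransferase of membrane anchors, rose by 2.78 and 2.64. Lower in both lines were ROR1, a Wnt5a receptor, with changes of -1.28 and -1.33, KLHL11, with -1.20 and -1.07, and AL672142.1, which overlaps NUP188 and PHYHD1 on its strand, with -1.27 and -1.07. Cell cycle genes fell in both lines. Of 50 mitotic genes 47 fell in HT29 and 36 in LS513, none rose in either line, and the interaction was lower in HT29 for 6, a share of 12% beside 12.1% of all genes. PLK1, the mitotic kinase, changed by -0.74 in HT29 and -0.17 in LS513, and the call of its interaction (-0.57) was lost without HT29 2D replicate 2 (adjusted p = 0.054). ESPL1, separase, fell by 0.96 in HT29 and fell by 0.29 in LS513. In 8 of the 12 fits that left out a library 1 to 3 mitotic genes passed, the fewest without HT29 2D replicate 2. Of 48 S phase genes 20 fell in HT29 and 33 in LS513, and 4 passed the interaction test (8.33%, against 12.1% of all genes). FEN1, RPA2 and E2F8 had a higher and TK1 a lower response in HT29. FEN1, the flap endonuclease of lagging strand synthesis, changed by 0.14 in HT29 and -0.35 in LS513, while the calls of RPA2, E2F8 and TK1 were lost in 2, 8 and 10 of the 12 fits that left out a library, and 1 member passed without LS513 2D replicate 1 or 2.

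Housekeeping lists gave few calls. Of 82 tested cytosolic ribosomal protein genes 72 rose in HT29 and 43 in LS513. Of these 82, RPS27L and RPS24 passed the interaction test (2.44%, against 12.1% of all genes). Their interactions were 0.65 and 0.58, and the call of RPS24 was lost in 4 of the 12 fits that left out a library. Without LS513 3D replicate 2, 7 of the list passed. None of 13 mitochondrially encoded genes passed with edgeR, none had an unadjusted p under 0.05, and DESeq2 called none. None of 37 nuclear subunits of respiratory complex I passed with edgeR, 6 had an unadjusted p under 0.05, and DESeq2 called 3. Of 19 heat shock protein genes 15 fell in HT29 and 9 in LS513, and 2 passed the interaction test (10.5%, against 12.1% of all genes). HSP90AB1 fell by 1.01 in HT29 and changed by -0.23 in LS513 (LS513 interval -0.42 to -0.04, interaction -0.78), and STIP1 was the other of the 2, a call lost in 8 of the 12 fits that left out a library (adjusted p up to 0.15, without HT29 2D replicate 2). Among 12 tested purinergic genes, the signaling the study turned to, 1 passed the interaction test (8.33%, against 12.1% of all genes). It was P2RY2, a receptor for extracellular ATP, at 31.4, 44.25 and 36.4 CPM in HT29 2D and 34.3, 30.6 and 39.4 CPM in HT29 3D. In LS513 it measured 14.9, 14.95 and 14.9 CPM in 2D and 28.5, 23.1 and 24.7 CPM in 3D (interaction -0.87, SE 0.19, adjusted p = 0.0032). Replication-dependent histones followed 1 library. With all libraries 1 of 38 had a higher and 7 a lower response in HT29 and the HT29 median was -2.83. Without HT29 2D replicate 3 none of 39 passed and the HT29 median was 0.53. For snoRNAs 18 of 117 (15.4%, against 12.1% of all genes) had a lower response with all libraries and 4 of 119 without that library. Unlike the histones, their HT29 median stayed negative, at -1.535 with all libraries and -1.184 without it. The count was not tied to that library alone, since 3 snoRNAs passed without LS513 3D replicate 3.

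**Figure D4:**
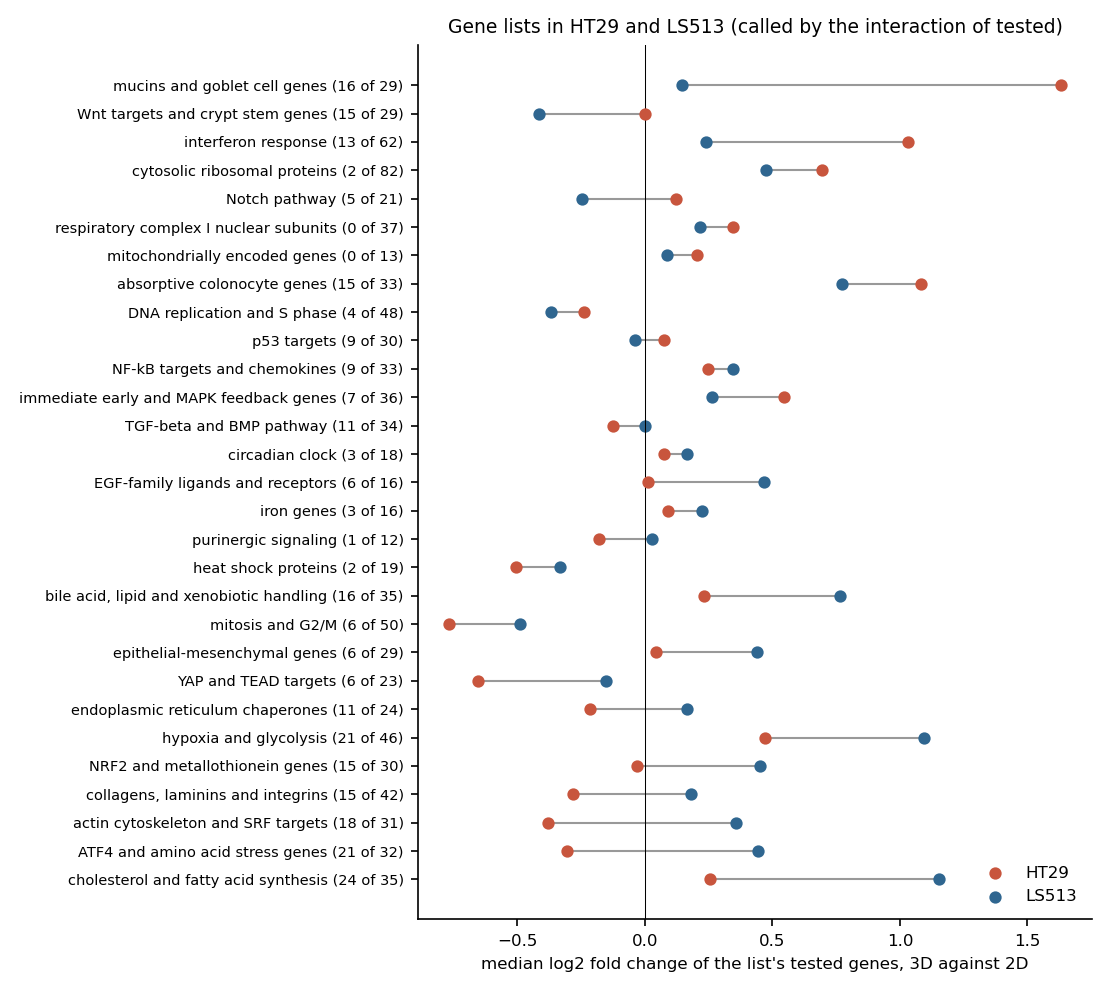
Median log2 change from 2D to 3D of the tested members of each gene list in HT29 and in LS513, as 2 points per list, without the marker, snoRNA and histone lists. Goblet genes have the widest gap in favour of HT29, at 1.63 against 0.15, and sterol genes in favour of LS513, at 1.15 against 0.25.

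Where a gene moved in 1 line, the level of the other line, as the mean of its 2D and 3D groups, was set beside it. This is a description, since the rule used both lines. Of the 249 protein-coding genes higher in HT29 alone, LS513 was above both HT29 levels for 144 (57.8%), between them for 69 (27.7%) and under both for 36 (14.5%). Over all 14700 protein-coding genes tested, LS513 was above both HT29 levels for 41%, between them for 17.4% and under both for 31.4%. LS513 was at or under the floor for 0 of the 249 and for 10.1% of all. The rule used both lines and asked for a change of at least 1 in the moving line. The shares of a class and of all genes, here and below, are therefore not comparable, least of all those between the levels. ATOH1, AGR3, SPINK4, TFF3, CDX1, PSMB8 and TAP1 were in the group above, and IFI6 and NXPH4 in the group under both. Of the 102 protein-coding genes higher in LS513 alone, HT29 was above both LS513 levels for 38 (37.3%, against 40.8% of all). It was between them for 43 (42.2%, against 12.9%) and under both for 19 (18.6%, against 38.8%), with 2 at or under the floor. SLC2A1 was among those between. For the 77 genes lower in HT29 alone LS513 was above both levels for 30 (39%, against 41% of all). It was between them for 26 (33.8%, against 17.4%) and under both for 21 (27.3%, against 31.4%).

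The 3D changes of HCT116 and LS174T were no condition of these classes, although their libraries entered the scaling, the filter and the spread of the fit. Of the 282 genes higher in HT29 alone, 125 (44.3%, exact 95% binomial interval 38.4 to 50.3) were also higher in 3D in HCT116 and 113 (40.1%, 34.3 to 46.1) in LS174T, against 16.8% and 13.1% of all tested genes. Of the 125 genes higher in LS513 alone, 63 (50.4%, 41.3 to 59.5) were higher in HCT116 and 40 (32%, 23.9 to 40.9) in LS174T. Of the 109 lower in HT29 alone, 20 (18.3%) were lower in HCT116 and 31 (28.4%) in LS174T, against 12.3% and 9.15% of all. The 21 lower in LS513 alone gave 6 (28.6%) in each. The intervals count genes as if they were independent, which they are not. By function the other lines split. All 62 interferon genes were higher in 3D in HCT116 and 9 in LS174T, 18 of the 29 goblet genes were higher in LS174T, and 28 of the 35 sterol genes were higher in HCT116 and 28 in LS174T. Of all tested genes 16.8% were higher in HCT116 and 13.1% in LS174T. The lists were chosen with earlier results of these data known, so these list counts are a description and no independent check. ATOH1 rose by 1.63 in LS174T (adjusted p = 2.5e-06) and gave -0.09 in HCT116 (adjusted p = 0.96). IFI6 rose by 5.11 in HCT116 and gave 0.29 in LS174T (adjusted p = 0.69). FLNA fell by 0.86 in LS174T and gave -0.07 in HCT116 (adjusted p = 0.78), and SLC2A1 rose by 1.33 and 1.19 in HCT116 and LS174T.

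**Figure D5:**
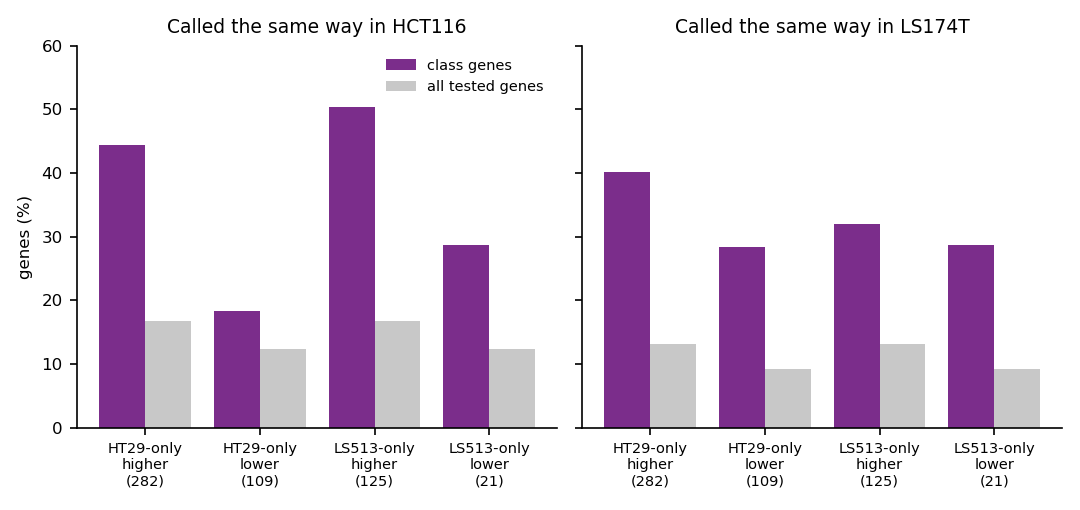
Share of the genes of each class that passed the test in the same direction in HCT116 and in LS174T, in percent (purple bars), beside the share of all tested genes called in that direction (grey bars). The bars of the classes higher in 3D are over the grey ones in both lines, at 44.3% and 50.4% in HCT116 against 16.8%.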

How the data were processed

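Poly(A)+ RNA of HT29, LS513, HCT116 and LS174T cells, grown in 2D or 3D, was made into stranded libraries and sequenced as single reads. The authors deposited raw counts per Ensembl gene for each technical replicate. The submitters' processing notes name bcl2fastq 2.18.0.12, Trim Galore 0.4.1, STAR and HTSeq 0.5.3. They name the build hg19 while the study names a later Ensembl annotation, and the gene identifiers matched GENCODE 29 on GRCh38 for 57980 of 58243 genes (the others held 0.0306% of counts), which gave the positions. The 8 technical replicates of each library were summed, since they differed by no more than sampling noise, and technical replicate d of HT29 3D replicate 4 was not analysed here.

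Groups were taken from the labels. Counts were fitted in edgeR 4.0.16 (R 4.3.3) by a robust quasi-likelihood model with 1 coefficient for each of 8 groups of 24 libraries, TMM scaling, genes kept by filterByExpr, and Benjamini-Hochberg adjustment over 19387 genes. The interaction was (HT29 3D - 2D) - (LS513 3D - 2D). Levels are CPM, with library sizes scaled by TMM. Alternatives used DESeq2 1.42.0, its size factors, all genes with at least 1 count, only the 12 libraries of both lines, a replicate block, other size limits, and each library left out in turn. The fit was tested on simulated data with 200 genes changed in HT29 alone, of which 134 (67%) were recovered with 3 false calls. Total counts per library ran from 18723942 to 34277421, and the floor of 3 counts covers counting error only. Promoters are RefSeq sequences, matched for 11944 tested genes. Plots used Python 3.11.15 and matplotlib 3.10.9.

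Some genes that these rules name are not reported here. The members and lists were chosen with earlier results of these data known. Genes were named by rule, as the 4 largest interactions in each class responding in 1 line, the 3 largest in each opposite class, 3 comparators in each direction, the 2 called members of each list with the smallest p, the purinergic genes, and markers of other cells. Genes named from the classes and comparators needed at least 5 CPM in some HT29 or LS513 group and no overlap of libraries. The class counts carry no such condition. Of the 282 genes higher in HT29 alone 199 reached 5 CPM, and of the 109 lower 77 did. In LS513 alone 86 of 125 and 14 of 21 did. A further 47 genes were chosen after their values were seen: DLL1, SPINK4, TFF3, TFF1, AGR2, ERN2, PSMB8, PSMB9, TAP1, OAS1, SQLE, HMGCS1, DDIT4, LDHA, ALDOA, VEGFA, CA9, NDRG1, CHAC1, DDIT3, ASNS, SLC7A11, VCL, ACTB, MYH9, ZYX, EPHB2, EPHB3, CDCA7, LAMA3, FN1, CCND1, JAG1, LFNG, SREBF1, P4HA2, PFKFB3, COL9A2, ITGA1, TCF7L2, TNFRSF19, MT2A, E2F8, TK1, SLC39A14, CLOCK and DUSP6.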

Additional observations from a re-analysis of the deposited data

Results flagged for a closer look

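The 2341 genes called by the interaction, and each gene named above that is among them, were flagged because the test of the difference itself found that HT29 and LS513 changed unequally from 2D to 3D. The values below are interactions in log2 units, HT29 minus LS513. Genes with a group at 0 are left out, since a fitted value then depends on the prior count. For ATOH8 (1 count over the HT29 2D libraries, SE 1.48), DLL1, PSMB9, OR51E1, VSNL1, CAV1, ZNF274, TNFAIP2, SNORD12C and VWF a group mean was under the floor of 3 counts, so the size of the fitted value is uncertain.

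On the secretory side the interaction was 4.71 for AGR3, 4.64 for ATOH1, 4.18 for SPINK4, 2.97 for TFF3, 2.09 for ERN2, 1.17 for AGR2 and -4.28 for TFF1. The Notch genes gave 4.56 for DLL4, 4.50 for DLL1, 0.84 for LFNG and -1.36 for JAG1, and the absorptive genes 2.75 for CDX1, 1.66 for CDX2, -2.80 for PLAC8 and -3.03 for EMP1. Interferon genes gave 3.19 for IFI6, 2.75 for PSMB9, 1.39 for PSMB8, 1.07 for TAP1, 0.81 for OAS1 and -1.97 for SAMD9. Among Wnt targets and crypt stem genes it was 2.64 for PROM1, 2.15 for ASCL2, 1.82 for LGR5, 1.67 for EPHB3, 1.48 for EPHB2, 1.14 for CDCA7, -0.62 for TCF7L2, -0.96 for CCND1 and -2.23 for TNFRSF19.

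Actin and SRF genes gave -0.90 for MYH9, -0.95 for ZYX, -1.14 for ACTB, -1.24 for VCL, -3.03 for MYL9 and -3.27 for FLNA, and YAP targets -2.19 for MYOF and -4.64 for AXL. Matrix genes and integrins gave 1.39 for ITGA1, -2.09 for LAMA3, -2.58 for COL16A1, -4.47 for FN1 and -5.24 for TNC, and junction and protease genes 1.47 for CLDN2 and -2.92 for PLAU. Signaling genes gave 0.69 for DUSP6, -0.94 for DUSP4 and -1.10 for EPHA2, with -1.39 for EGFR, 6.64 for ATOH8 and -2.35 for TGFBI.

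Sterol genes gave 0.51 for SREBF1, -1.38 for SQLE, -1.62 for HMGCS1, -1.90 for MSMO1 and -1.998 for INSIG1, and hypoxia genes 1.04 for NDRG1, 0.83 for P4HA2, 0.67 for PFKFB3, -0.82 for LDHA, -0.83 for VEGFA, -1.05 for ALDOA, -1.37 for SLC2A1, -1.76 for ERRFI1, -2.10 for CA9 and -2.94 for DDIT4. Amino acid stress genes gave -1.03 for GARS, -1.76 for ASNS, -2.21 for SLC7A11, -2.23 for SESN2, -2.57 for CHAC1 and -2.70 for DDIT3, reticulum chaperones -0.52 for P4HB and -0.92 for HSPA5, redox genes 0.82 for MT2A, -1.29 for TXNRD1 and -1.32 for FTH1, and iron genes -0.74 for SLC39A14 and -0.95 for TFRC. Heat shock genes gave -0.45 for STIP1 and -0.78 for HSP90AB1.

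Cell cycle genes gave 0.69 for E2F8, 0.48 for FEN1, 0.44 for RPA2 and -0.50 for TK1, and for mitosis -0.57 for PLK1 and -0.67 for ESPL1. Inflammatory genes gave 2.91 for CFB, -1.57 for IL18 and -2.85 for TNFAIP2, and the p53 target was at 2.07 for BTG2. Xenobiotic genes gave 2.94 for CYP1A1 and -1.47 for CYP3A5, clock genes -1.15 for CLOCK and -2.23 for BHLHE40, and the purinergic receptor -0.87 for P2RY2. The leukocyte marker CD68, the endothelial marker VWF and several small RNA genes were fragile. CD68 was at -0.85 and lost its call in 9 of the 12 fits that left out a library. VWF, with few counts in any library, was at -4.83 and lost its call in 10 of them. Outside the functional lists or in the ribosomal, histone and snoRNA lists, the interaction was 4.92 for NXPH4, 4.88 for NEURL1, 4.71 for OR51E1, 4.34 for NOX1, 1.74 for CYFIP2, 1.70 for SERPINI1, 0.65 for RPS27L, 0.58 for RPS24, -2.35 for SNORD96A, -3.14 for RAB7B, -3.35 for CLU, -3.68 for HIST1H2BC, -4.37 for ZNF274, -4.55 for VSNL1, -4.56 for MAOB, -4.60 for HIST1H4H, -4.72 for C11orf86, -5.13 for SNORD12C and -6.38 for CAV1. The histones HIST1H2BC and HIST1H4H lost their calls without HT29 2D replicate 3 (adjusted p of 0.15 and 0.41), the library with high histone and snoRNA levels.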

How the results depend on the processing

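The interaction gave 2341 calls and 1067 when a size of at least 1 was also asked. It gave 2778 with DESeq2, 2279 with the size factors of DESeq2, 2494 with all genes that had at least 1 count, 3107 when only the 12 libraries of HT29 and LS513 were fitted, 2274 without technical replicate d, and 1737 to 2098 when 1 library was left out (820 to 1156 higher in HT29 and 863 to 1069 lower). Genes that responded in HT29 alone numbered 391, or 630 with size limits of 0.5 and 0.25 and 116 when the 95% interval of the other line had to lie within 0.5, and 326 to 443 without 1 library. For LS513 alone these counts were 146, 249, 31 and 111 to 171. Genes changed in both lines by unequal amounts numbered 250, 437 with only the 12 libraries, and 131 to 223 without 1 library, the fewest without LS513 2D replicate 2. LS513 gave 4571 calls of its own, and 2784 without LS513 3D replicate 2 to 5221 without LS513 3D replicate 3. Opposite genes numbered 297, and 206 to 274 without 1 library.

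The labels do not say whether replicate numbers pair the samples, and the main fit used no pairing. The correlation of same-numbered 2D and 3D deviations was 0.013 and -0.0253 in HT29 and -0.1275 to 0.0788 in LS513. Differently numbered LS513 samples gave -0.2291 to 0.2207, so correlations from so few libraries cannot decide whether samples were paired. With a replicate block the interaction gave 1151 calls, 494 higher and 657 lower in HT29, with 165 opposite genes and 78 changed in both lines by unequal amounts.

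No called result changed sign under the settings run, while interactions that did not pass crossed 0 under some of them, as for the comparators ATF3, DUSP1, PIGZ, ROR1, KLHL11 and AL672142.1 and the purinergic genes P2RX7, P2RY1, P2RY11 and PANX1. Over the named genes, fits without 1 library left 1526 results on the same side of the threshold and took the call from 118. The size factors of DESeq2 took 2 calls, all genes with at least 1 count 4, the 12 libraries 2, technical replicate d 1, DESeq2 1 and the replicate block 23, among them C10orf99, FEN1, P4HB and PSMB9. List counts were compared by alternatives chosen after seeing the data. Those that moved by over 1.5 times, beside the ones given above, were S phase genes (4, or 8 with the 12 libraries and 0 with the replicate block), mitotic genes (6, or 11 and 1), reticulum chaperones (11, or 7 with all genes and 4 with the block), interferon genes (13, or 6 with the block), YAP targets (6, or 3 with the block), EGF-family genes (6, or 2 with the block), TGF-beta genes (11, or 7 with the block), MAPK genes (7, or 18 with all genes), iron genes (3, or 6 with all genes and 5 with DESeq2 or the block), clock genes (3, or 5 with all genes and 6 with the 12 libraries), heat shock genes (2, or 4 with the 12 libraries and 1 with the block), ribosomal genes (2, or 20, 14, 5 and 1 with all genes, the 12 libraries, DESeq2 and the block), complex I (0, or 5, 7 and 3), mitochondrial genes (0, or 2 with all genes), histones (8, or 44 with all genes, 1 with the 12 libraries and 14 with the block) and snoRNAs (18, or 45 with all genes and 10 with the block). Without 1 library the counts ran from 1 to 5 for S phase, 1 to 6 for mitosis, 3 to 6 for YAP targets, 5 to 10 for reticulum chaperones, 1 to 7 for ribosomal genes, 1 to 3 for heat shock genes, 0 to 3 for complex I, 0 to 27 for histones and 3 to 28 for snoRNAs. The cause was not tested. With 3 libraries per group, genes near the floor of 3 counts (0.0941 to 0.123 CPM over the group means) could show only large differences.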

Other observations

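CYP1A1, CYP3A5, BHLHE40, CFB, IL18 and BTG2 belong to lists not described above. Xenobiotic and lipid handling split by gene, with 5 of 35 tested members higher and 11 lower in the interaction (45.7%, against 12.1% of all genes). CYP1A1, the enzyme that aryl hydrocarbon receptor ligands induce, rose from 1.13, 0.482 and 2.301 to 19.6, 29.01 and 23.9 CPM in HT29, and in LS513 from 3.44, 3.05 and 1.901 to 4.97, 7.99 and 8.97 CPM (interaction 2.94, SE 0.45, adjusted p = 7.8e-05, edgeR). CYP3A5, a drug-oxidising enzyme of gut and liver, rose in LS513 from 23.5, 20.2 and 19.5 to 48.3, 58.7 and 48.3 CPM and was at 88.8, 80.4 and 67.9 CPM in HT29 2D and 57.1, 91.1 and 62.65 CPM in HT29 3D, where the change of -0.17 had an interval of -0.48 to 0.14. This list lost members when libraries were left out, with 8 called without HT29 2D replicate 1 and 10 without HT29 2D replicate 3 or HT29 3D replicate 3.

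Of 18 tested clock genes 1 had a higher and 2 a lower response in HT29 (16.7%, against 12.1% of all genes). Of 33 NF-kB targets and chemokines 4 had a higher and 5 a lower one (27.3%, against the same 12.1%). BHLHE40, a repressor of clock genes that hypoxia also induces, rose from 16.99 ± 5.64 to 153 ± 65.1 CPM in LS513 (mean ± SD, n = 3) and by 0.94 in HT29 (interaction -2.23, SE 0.51). CLOCK fell by 1.24 in HT29 and changed by -0.09 in LS513, a difference that lost its call in 9 of the 12 fits that left out a library. CFB, complement factor B, rose from 0.892, 0.619 and 0.548 to 5.098, 5.77 and 4.64 CPM in HT29 and was at 1.06 ± 0.1985 and 1.03 ± 0.356 CPM in LS513 (interval of the change -0.67 to 0.61), and the gene overlaps the end of C2 on the same strand. IL18, an epithelial cytokine, fell in HT29 from 7.82, 9.29 and 8.11 to 4.04, 3.49 and 3.265 CPM, while LS513 changed by 0.35 with an interval of 0.07 to 0.62. BTG2, an antiproliferative p53 target, rose from 19.2, 13.6 and 14.9 to 60.99, 43.05 and 41.6 CPM in HT29 and fell from 44.4, 47.6 and 42.8 to 29.5, 35.2 and 33.2 CPM in LS513 (interaction 2.07, SE 0.19).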
